A study of Mus musculus with 12 samples.

Results

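The aryl hydrocarbon receptor (AHR) and its targets were followed here as 7 genes, chosen by name from the 56923 genes in the count table of mouse back skin. They are the receptor *Ahr*, its partner *Arnt*, its repressor *Ahrr* and the targets *Cyp1a1*, *Cyp1b1*, *Tiparp* and *Nqo1*. All 7 were found by gene symbol, and all 7 passed the filter on low counts that left 18529 genes for testing. Bulk RNA was sequenced from the skin of 12 female mice on a C57BL/6 background. The mice were 8 to 10 weeks old, and each of the 4 groups held 3. WT control and WT IMQ mice were wild-type littermates given vehicle cream or 5% imiquimod (IMQ) cream, a Toll-like receptor agonist that brings on a psoriasis-like dermatitis, on the shaved back every day for 6 days. The other two groups received the same creams and are labelled *Lcn2*-/-, a knockout of the gene for lipocalin 2, a secreted protein that binds bacterial iron carriers. The sample labels call that genotype a knockdown and the control treatment none, while the methods of the study describe a knockout and a vehicle. The labels give the tissue as skin but the extraction text speaks of retinas, and the summed level of 6 retina markers was between 0.471 and 2.91 CPM, the count of a gene relative to the scaled size of its library, in every library.

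AHR is a transcription factor that waits in the cytosol in a complex with heat shock protein 90 until it binds a small molecule, which may be a dioxin, a tryptophan metabolite or a plant compound. It then enters the nucleus, pairs with ARNT and binds short DNA sites called dioxin response elements. In skin it is known for the response to pollutants and ultraviolet light, for barrier formation and for tempering psoriasis-like inflammation, and CYP1A1, its classical target, degrades AHR ligands. AHRR competes with AHR for ARNT, TIPARP adds ADP-ribose to AHR and limits its activity, and NQO1, a quinone reductase, is shared with NRF2, the transcription factor of the oxidative stress response.

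The deposited libraries did not show the loss of *Lcn2* that their labels name, so they are called by their labels throughout. *Lcn2* counts were 136, 201 and 86 in WT control, 1010, 2723 and 1572 in WT IMQ, 320, 173 and 357 in control labelled *Lcn2*-/- and 561, 511 and 830 in IMQ labelled *Lcn2*-/-. Between the IMQ groups *Lcn2* was lower in mice labelled *Lcn2*-/- by a log2 difference of -1.49 (SE 0.40). Its adjusted p was 0.0525 by edgeR's test across all genes. The study lists *Lcn2* among the genes lowered in that comparison. Between the control groups the log2 difference was 0.87 (SE 0.41, adjusted p = 0.794 by that test). Counts do not show which exons the reads lie on. Library totals were between 16448226 and 28592110 counts, and 3 counts correspond to between 0.0985 and 0.202 CPM. P-values measure the spread between the mice deposited as replicates.

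The start regions of the genes are shown first, since matches to the cores of AHR and NRF2 sites can be searched in them. RefSeq promoters (GRCm38.p6), 250 bases before to 50 bases after the start of the gene, were given for 6 of the 7 genes, and *Ahr* had none. GCGTG, the core of the dioxin response element, was searched on both strands, where it reads CACGC on the opposite strand. The 4 genes below are those the results turn on, printed 5′ to 3′ on the strand of the gene, as far as the first annotated exon of that gene within the bases before the start, with each core in capitals.
Tiparp: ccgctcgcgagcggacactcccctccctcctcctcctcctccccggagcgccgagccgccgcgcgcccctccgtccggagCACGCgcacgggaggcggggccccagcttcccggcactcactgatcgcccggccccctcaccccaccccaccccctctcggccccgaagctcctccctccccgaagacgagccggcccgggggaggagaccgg
Nqo1: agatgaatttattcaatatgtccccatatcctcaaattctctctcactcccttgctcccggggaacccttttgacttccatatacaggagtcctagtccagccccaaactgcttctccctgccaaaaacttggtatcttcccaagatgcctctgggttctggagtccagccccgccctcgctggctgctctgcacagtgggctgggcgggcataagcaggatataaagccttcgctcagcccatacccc
Cyp1a1: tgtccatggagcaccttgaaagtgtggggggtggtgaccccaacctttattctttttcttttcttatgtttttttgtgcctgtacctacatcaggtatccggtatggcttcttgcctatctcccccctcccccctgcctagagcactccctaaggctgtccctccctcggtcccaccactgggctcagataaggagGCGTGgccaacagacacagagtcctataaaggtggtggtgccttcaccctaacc
Ahrr: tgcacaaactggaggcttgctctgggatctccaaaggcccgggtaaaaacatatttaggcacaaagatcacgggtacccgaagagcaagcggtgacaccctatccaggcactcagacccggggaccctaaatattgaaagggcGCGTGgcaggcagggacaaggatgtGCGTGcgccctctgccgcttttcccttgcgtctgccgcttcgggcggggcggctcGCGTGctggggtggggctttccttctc
These stretches lie at chr3:65528197-65528409, plus strand (*Tiparp*), chr8:107403207-107403455, minus strand (*Nqo1*), chr9:57697363-57697612, plus strand (*Cyp1a1*) and chr13:74292332-74292581, minus strand (*Ahrr*). For *Cyp1a1* the RefSeq start is that of the shorter annotated transcript, chr9:57697613-57703824, so its window lies inside the span of a longer transcript that starts at base 57687928, between the exons of that transcript.

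The core occurred 3 times in the *Ahrr* window, 107, 82 and 27 bases before the start. It occurred once each in the windows of *Cyp1a1*, 54 bases before the start, and *Tiparp*, 170 bases before. *Cyp1b1* held 1 core 76 bases before its start, *Arnt* held 1 at 29 bases before, and *Nqo1* held none in this window. Of all 32851 promoters of the same length, 32.4% held at least 1 core, so a single match in 300 bases is common. The longer form TNGCGTG, which contains the core, was found in 5.07% of promoters and, among these genes, once in *Ahrr*. TGACNNNGC, the core of the antioxidant response element that NRF2 binds, was found in 12.4% of promoters and at 2 places in *Arnt*. The *Nqo1* window held no match to it either. The matches are letters in a window and were not tested as binding sites. Bases outside the 300 were not searched, so a window without a match does not show that the gene lacks such sites.

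Per kilobase of exon, which allows levels to be set side by side between genes, *Cyp1a1* stood first in WT control skin at 15.3 ± 3.98 CPM per kb (SD, n = 3). *Tiparp* (10.5 ± 3.78), *Arnt* (10.5 ± 1.13), *Cyp1b1* (10.1 ± 1.08), *Nqo1* (8.80 ± 1.39) and *Ahr* (8.79 ± 1.75) followed in CPM per kb, and neighbours in this order differed by less than the larger of their SDs, except for *Cyp1a1* and *Tiparp* and for *Ahr* and *Ahrr*. *Ahrr* was lowest by far at 0.687 ± 0.103 CPM per kb. In WT IMQ skin the order had changed, with *Tiparp* first at 32.6 ± 3.30 CPM per kb and *Nqo1* next at 19.0 ± 0.859. *Arnt* (12.4 ± 0.0816), *Cyp1b1* (11.7 ± 5.77), *Ahr* (7.46 ± 1.65) and *Cyp1a1* (5.14 ± 4.96) came next in CPM per kb. *Cyp1a1* had moved from the first place to the place above *Ahrr* (0.633 ± 0.0825 CPM per kb), and neighbours from *Arnt* downwards differed by less than the larger of their SDs.

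**Figure D1:**
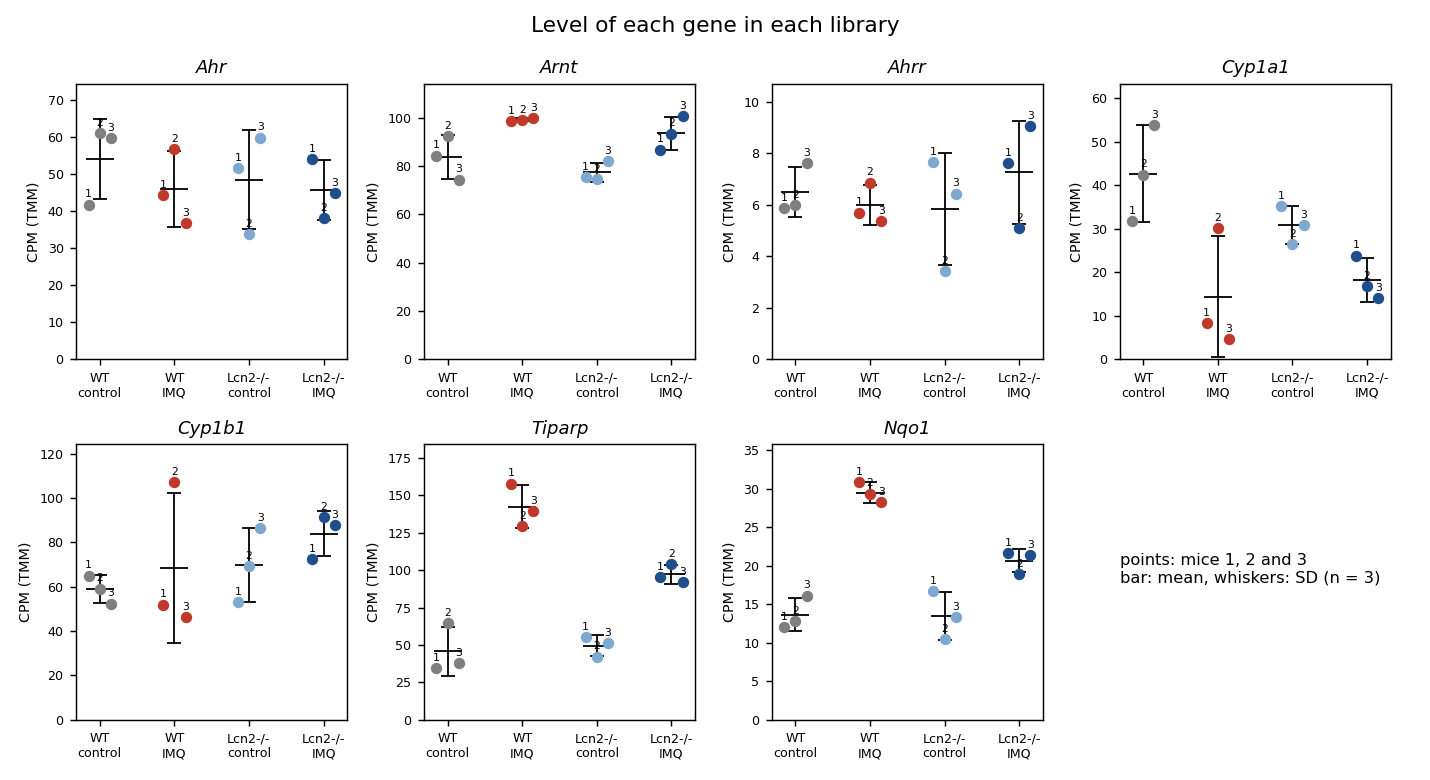
Level of each of the 7 genes in CPM on the vertical axis, scaled by TMM and starting at 0, for the 12 libraries in 4 groups. Points are single mice with their replicate numbers, the horizontal bar is the group mean and the whiskers are the SD. *Tiparp* and *Nqo1* stand above both control groups in every IMQ mouse, and WT IMQ mouse 2 lies apart from the other WT IMQ mice in *Cyp1a1* and *Cyp1b1*.

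The question of the first comparison was which of these genes changed when WT skin was treated with IMQ. *Tiparp* and *Nqo1* rose and *Cyp1a1* fell, while the receptor, its partner, its repressor and *Cyp1b1* did not pass the test. In this comparison 14.2% of all tested genes were called higher and 14.3% lower at an adjusted p under 0.05 (edgeR's quasi-likelihood test, Benjamini-Hochberg adjusted over all 18529 genes), against 2 and 1 of the 7. The groups did not overlap for 4 of the 7, beside 40.6% of all tested genes. The median log2 fold change was 0.22 over the 7 and -0.02 over all genes tested.

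*Ahr* lies on the minus strand at chr12:35497974-35535038 of GRCm38. Its level was 41.8, 61.1 and 59.7 CPM in WT control and 44.3, 56.9 and 36.7 CPM in WT IMQ, and 51.7, 33.7 and 59.9 CPM in control labelled *Lcn2*-/- against 54.2, 38.1 and 44.9 CPM in IMQ labelled *Lcn2*-/-. The values of all 4 groups overlapped. The log2 difference was -0.24 (SE 0.24, 95% interval -0.75 to 0.28) after IMQ in WT mice, with an adjusted p of 0.482. Among mice labelled *Lcn2*-/- the log2 difference after IMQ was -0.09 (SE 0.24, adjusted p = 0.822).

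*Arnt* (chr3:95434388-95497240, plus strand) encodes the partner that AHR shares with the hypoxia-inducible factors. It was measured at 84.3, 92.5 and 74.4 CPM in WT control and at 98.6, 99.1 and 99.9 CPM in WT IMQ. Each WT IMQ mouse lay above every WT control mouse, by a small margin. The log2 difference was 0.24 (SE 0.10), with an unadjusted p of 0.0346 from edgeR's test across all genes and an adjusted p of 0.0948. In the mice labelled *Lcn2*-/-, *Arnt* was at 75.5, 74.6 and 82.1 CPM in the control and at 86.9, 93.5 and 101 CPM after IMQ. Those groups did not overlap either, and the log2 difference of 0.28 (SE 0.10) also missed the threshold (adjusted p = 0.069).

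*Ahrr* (chr13:74211118-74292331, minus strand), which held the most cores of the dioxin response element, showed no detectable difference. Its level lay between 5.87 and 7.60 CPM in WT control, between 5.38 and 6.86 CPM in WT IMQ, between 3.41 and 7.65 CPM in control labelled *Lcn2*-/- and between 5.09 and 9.05 CPM in IMQ labelled *Lcn2*-/-. All groups overlapped. Its log2 difference after IMQ was -0.12 (SE 0.30, adjusted p = 0.804) in WT mice and 0.31 (SE 0.30, adjusted p = 0.476) in mice labelled *Lcn2*-/-.

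*Tiparp* (chr3:65528410-65555518, plus strand) rose after IMQ in both genotypes. It was at 34.4, 64.6 and 38.0 CPM in WT control and at 158, 129 and 139 CPM in WT IMQ. All 3 treated mice were at least at 129 CPM while no control mouse exceeded 64.6 CPM. The rise was 3.11-fold (log2 1.64, SE 0.21, adjusted p = 0.000202). Control mice labelled *Lcn2*-/- had 55.2, 42.1 and 51.4 CPM and their IMQ counterparts 95.4, 104 and 91.9 CPM. Every treated mouse again lay above every control mouse, with a rise of 1.96-fold (log2 0.97, SE 0.21, adjusted p = 0.00617). *Tiparp* was called in each fit that left out 1 mouse, in both genotypes, with log2 differences of 1.47 to 1.97 in WT and of 0.87 to 1.05 in mice labelled *Lcn2*-/-. An antisense gene, *4931440P22Rik*, overlaps it with 3 to 35 counts per library, and the strand setting of the counting is not given in the sources used here.

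*Nqo1* (chr8:107388225-107403206, minus strand) rose in those comparisons too. Its level was 12.1, 12.8 and 16.1 CPM in WT control and 30.9, 29.4 and 28.2 CPM in WT IMQ. The treated WT mice lay close together, all above the controls. The rise was 2.16-fold (log2 1.11, SE 0.18, adjusted p = 0.000892). In the mice labelled *Lcn2*-/- the level was 16.7, 10.5 and 13.3 CPM without and 21.6, 18.9 and 21.4 CPM with IMQ. The groups did not overlap and the rise was 1.53-fold (log2 0.61, SE 0.18, adjusted p = 0.0262). That call was lost without control mouse 2, control mouse 3, IMQ mouse 1 or IMQ mouse 3 of those labelled *Lcn2*-/-, with log2 differences of 0.46, 0.59, 0.58 and 0.58 and adjusted p-values of 0.0838, 0.0771, 0.0738 and 0.0794.

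*Cyp1a1* (chr9:57687928-57703824, plus strand), the monooxygenase most often used as a readout of AHR activity, moved the other way. It was at 31.7, 42.4 and 53.9 CPM in WT control and at 8.18, 30.2 and 4.65 CPM in WT IMQ. Mouse 2 of WT IMQ lay just under the lowest control and far above the other treated mice. The level was 0.334-fold that of the control (log2 -1.58, SE 0.53, 95% interval -2.74 to -0.43, adjusted p = 0.0433). Without WT IMQ mouse 2 the log2 difference was -2.74 (adjusted p = 0.000235). The call was lost without any 1 of the other 5 WT mice, with log2 differences of -1.76, -1.59 and -1.38 without control mice 1, 2 and 3 (adjusted p = 0.0604, 0.0936 and 0.116) and of -1.30 and -1.15 without IMQ mice 1 and 3 (adjusted p = 0.158 and 0.104). In mice labelled *Lcn2*-/-, *Cyp1a1* was at 35.1, 26.5 and 30.8 CPM in the control and at 23.8, 16.8 and 14.0 CPM after IMQ. The groups did not overlap, with a log2 difference of -0.76 (SE 0.52) that did not pass the test (adjusted p = 0.303), though fits on those 6 mice alone gave adjusted p-values of 0.0293 (edgeR) and 0.00701 (DESeq2).

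Markers of several cell types fell in the comparison in which *Cyp1a1* fell, among them those of the sebaceous gland. The counts below stand beside 14.3% of all tested genes called lower in WT mice and 11.2% in mice labelled *Lcn2*-/-. Of 5 sebaceous markers, 4 were lower after IMQ in WT mice and 2 in mice labelled *Lcn2*-/-, and their summed level was between 3678 and 6702 CPM in WT control, 1203 and 3428 CPM in WT IMQ, 6070 and 9197 CPM in control labelled *Lcn2*-/- and 1365 and 4062 CPM in IMQ labelled *Lcn2*-/-. *Awat1*, a wax ester synthase of sebocytes, was at 162, 180 and 220 CPM in WT control and at 9.45, 60.6 and 1.70 CPM in WT IMQ. *Mc5r*, a melanocortin receptor of sebocytes, was at 4.54, 13.5 and 1.94 CPM in WT IMQ. WT IMQ mouse 2 was the highest of its group and mouse 3 the lowest in both, as for *Cyp1a1*. In IMQ labelled *Lcn2*-/- the order was not shared, since *Cyp1a1* was at 23.8, 16.8 and 14.0 CPM where the summed sebaceous markers were at 1365, 3079 and 4062 CPM. Nor was the WT IMQ order particular to this list. Langerhans cell markers, 2 of 3 lower in each genotype, summed to 290, 609 and 236 CPM in WT IMQ (1530 to 2374 CPM in WT control), and T cell markers, 3 of 4 lower in WT mice and none called in mice labelled *Lcn2*-/-, to 10.3, 22.9 and 6.35 CPM (33.8 to 50.1 CPM in WT control). Adipocyte markers, 1 of 5 lower in each genotype and so near the share of all tested genes, summed to 1078, 2233 and 1016 CPM in WT IMQ. Mouse 2 was the highest and mouse 3 the lowest in the Langerhans cell, T cell and adipocyte lists. Other lists with markers that fell in WT mice had another order. Skeletal muscle markers, 4 of 5 lower in WT mice, summed to 4233, 3459 and 3499 CPM in WT IMQ. Melanocyte markers, 2 of 4 lower, summed to 99.1, 68.3 and 135 CPM, and fibroblast markers, 2 of 5 lower, to 5962, 6603 and 6362 CPM. In mice labelled *Lcn2*-/-, Langerhans cell markers summed to between 937 and 1923 CPM in the control and between 721 and 1045 CPM after IMQ, T cell markers to between 24.7 and 51.8 CPM and between 17.2 and 27.2 CPM, and adipocyte markers to between 2341 and 4377 CPM and between 2302 and 3307 CPM. No marker of these lists was at 0 in any library, and the part of any of these cell types in the *Cyp1a1* difference was not tested. In bulk skin, fewer cells of a type and less RNA per cell cannot be told apart.

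**Figure D2:**
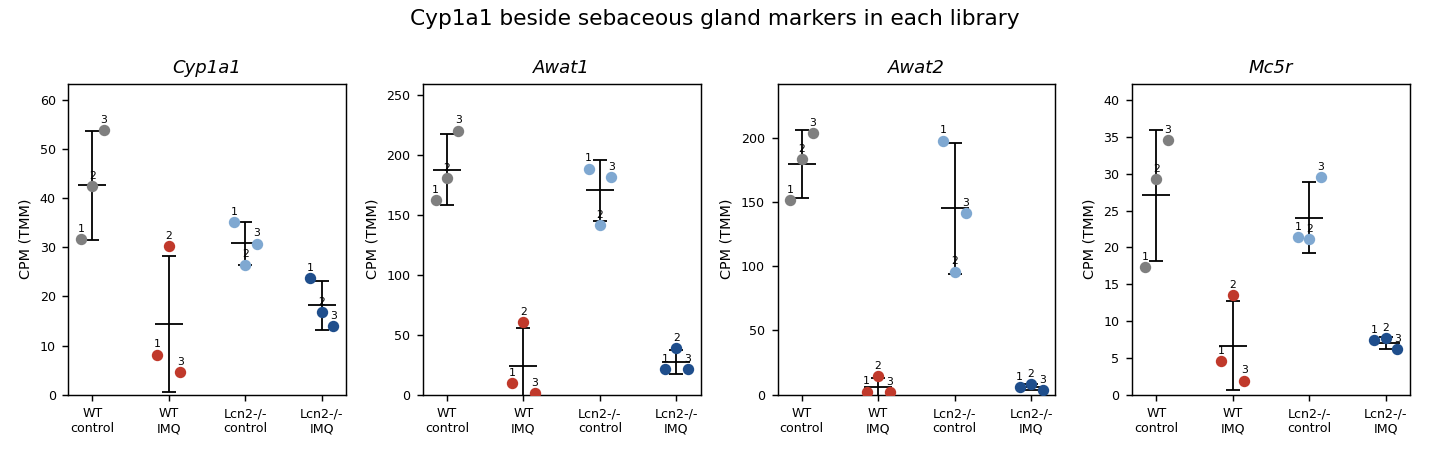
Levels of *Cyp1a1* and of the sebaceous gland markers *Awat1*, *Awat2* and *Mc5r* in CPM (TMM scaled, axes from 0) in the 12 libraries, with the mean (bar) and SD (whiskers) of each group of 3. Within WT IMQ, mouse 2 is the highest for all 4 genes, with 30.2 CPM for *Cyp1a1* and 60.6 CPM for *Awat1*.

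*Cyp1b1* (chr17:79701537-79715061, minus strand), the related monooxygenase that also acts on steroids, did not pass the test. Its level was 65.1, 59.1 and 52.4 CPM in WT control and 51.9, 107 and 46.4 CPM in WT IMQ. Mouse 2 of WT IMQ was above all controls, and the other treated mice were below every control. The log2 difference of 0.22 (SE 0.28, adjusted p = 0.600) turned to -0.27 (adjusted p = 0.322) without that mouse. In mice labelled *Lcn2*-/- the level was 53.1, 69.4 and 86.4 CPM without and 72.5, 91.6 and 87.7 CPM with IMQ, with a log2 difference of 0.27 (SE 0.28, adjusted p = 0.513). These groups overlapped.

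Markers of several cell types rose in the comparisons in which *Tiparp* and *Nqo1* rose, among them those of basal keratinocytes. The counts below stand beside 14.2% of all tested genes called higher in WT mice and 14.1% in mice labelled *Lcn2*-/-. Of 6 basal markers, 5 were higher and 1, *Krt15*, lower after IMQ in WT mice, and 3 were higher and 1 lower in mice labelled *Lcn2*-/-. Their summed level was between 3511 and 5165 CPM in WT control, between 15494 and 22601 CPM in WT IMQ, between 3329 and 4393 CPM in control labelled *Lcn2*-/- and between 9209 and 13205 CPM in IMQ labelled *Lcn2*-/-. Each IMQ library thus stood above all control libraries, and each WT IMQ library above each IMQ library labelled *Lcn2*-/-, as for *Tiparp* and *Nqo1*. Suprabasal keratinocyte markers rose in 4 of 6 cases in WT mice and in 5 of 6 in mice labelled *Lcn2*-/-, from sums of 2228 to 3588 CPM in WT control and 2400 to 3145 CPM in control labelled *Lcn2*-/- to 14458 to 16955 CPM in WT IMQ and 5836 to 15538 CPM in IMQ labelled *Lcn2*-/-. Neutrophil markers rose in 5 of 5 cases in both genotypes, from sums of 14.5 to 37.7 CPM in WT control and 28.5 to 67.7 CPM in control labelled *Lcn2*-/- to 6057 to 10153 CPM in WT IMQ and 3736 to 10306 CPM in IMQ labelled *Lcn2*-/-. Endothelial markers rose in 3 of 5 cases in WT mice and 4 of 5 in mice labelled *Lcn2*-/-. Macrophage markers rose in 1 of 5, near the share of all tested genes, and in 5 of 5. Endothelial sums were 269 to 378 CPM in WT control, 379 to 660.5 CPM in WT IMQ, 205 to 381 CPM in control labelled *Lcn2*-/- and 791 to 814 CPM in IMQ labelled *Lcn2*-/-, and macrophage sums were 559 to 2271, 1262 to 2239, 488 to 934 and 2107 to 2914 CPM in the same order of groups. Apart from 1 neutrophil marker in 1 WT control library and 1 in 1 control library labelled *Lcn2*-/-, no marker was at 0, and the part of these shifts in the rises was not tested.

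The IMQ response in mice labelled *Lcn2*-/- was read against its own background, in which 14.1% of all tested genes were called higher and 11.2% lower. Of the 7 genes, 2 rose and none fell by edgeR's test, with 3 at an unadjusted p under 0.05. The groups did not overlap for 4, beside 45.9% of all tested genes. The median log2 difference of the 7 was 0.28, and that of all genes was -0.05.

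IMQ-treated skin labelled *Lcn2*-/- was then compared with WT IMQ skin, with 4.78% of all tested genes called in either direction. None of the 7 was called by edgeR in the fit of all 12 mice or by DESeq2 in the same mice, and 2 had an unadjusted p under 0.05. These were *Tiparp*, lower by a log2 difference of -0.55 (SE 0.20, 95% interval -0.9955 to -0.10, adjusted p = 0.116), and *Nqo1*, lower by -0.51 (SE 0.18, 95% interval -0.90 to -0.13, adjusted p = 0.0958). For both, every WT IMQ mouse lay above every IMQ mouse labelled *Lcn2*-/-, a separation that 33.3% of all tested genes showed. Fits on the 6 IMQ mice alone called both, with adjusted p-values of 0.0288 for *Tiparp* and 0.0398 for *Nqo1* by edgeR and of 0.00293 and 0.0204 by DESeq2. *Cyp1a1* differed by a log2 of 0.35 (SE 0.52, adjusted p = 0.695), and without WT IMQ mouse 2 by 1.51 (adjusted p = 0.0152). *Cyp1b1* differed by 0.29 (SE 0.28, adjusted p = 0.525), and without that mouse by 0.78 (adjusted p = 0.026). The log2 differences of *Ahr* (-0.01), *Arnt* (-0.08) and *Ahrr* (0.28) had adjusted p-values of 0.991, 0.630 and 0.572.

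The IMQ responses of the genotypes were also compared directly, by the difference of their log2 fold changes, for which 2.15% of all tested genes were called. None of the 7 was called by edgeR or DESeq2, and *Tiparp* alone had an unadjusted p under 0.05. Its log2 rise was 1.64 in WT mice and 0.97 in mice labelled *Lcn2*-/-, a difference of -0.67 (SE 0.29, adjusted p = 0.186). Without WT control mouse 2, the highest control for *Tiparp*, the difference was -1.004 (adjusted p = 0.0439). For *Nqo1* it was -0.50 (SE 0.25, 95% interval -1.04 to 0.04, adjusted p = 0.239). For *Cyp1a1* it was 0.82 (SE 0.73, adjusted p = 0.512), and 1.98 (adjusted p = 0.0194) without WT IMQ mouse 2.

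No difference between the genotypes was detected in these genes without IMQ. Control mice labelled *Lcn2*-/- and WT control mice overlapped for all 7, where 9.37% of all tested genes did not overlap and 0.0108% were called. No gene of the 7 was called by edgeR or by DESeq2, none had an unadjusted p under 0.05, and adjusted p-values were at least 0.952. The widest interval was that of *Cyp1a1*, with a log2 difference of -0.47 (95% interval -1.59 to 0.65).

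**Figure D3:**
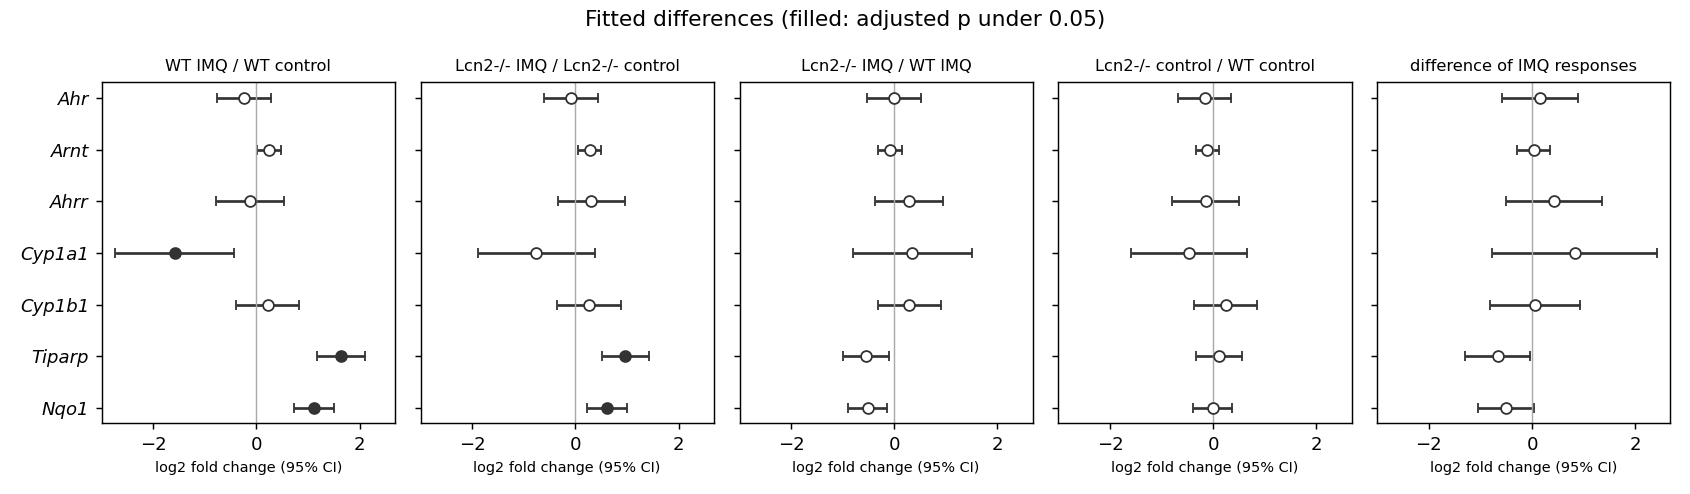
Fitted log2 fold changes (horizontal axis, points) with 95% confidence intervals (lines) of the 7 genes in the 5 comparisons from edgeR's fit over 12 mice. Filled points have an adjusted p under 0.05, which holds for *Tiparp* and *Nqo1* in both IMQ comparisons and for *Cyp1a1* in WT mice, and for no gene in the other panels.

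The wider pathway was read from 8 lists with 82 distinct genes that passed the filter. In WT mice 27 of the 82 rose and 10 fell after IMQ, and in mice labelled *Lcn2*-/- 22 rose and 6 fell. The 27 include *Il22*, which passed the filter on low counts only through WT IMQ. As shares these were 32.9% and 12.2% in WT mice, beside 14.2% and 14.3% of all tested genes, and 26.8% and 7.32% in mice labelled *Lcn2*-/-, beside 14.1% and 11.2%. These shares of all tested genes are also the background for the counts of each list below. The median log2 difference of the 82 genes was 0.08 and 0.12 in these comparisons. Between the IMQ groups 5 were lower labelled *Lcn2*-/- and none higher, none differed between the control groups by edgeR (14 had an unadjusted p under 0.05, and DESeq2 on all 12 mice called 2), and 3 differed in their IMQ response. The 5 are 6.1% of the 82, beside 4.78% of all tested genes, and the 3 are 3.66%, beside 2.15%. Apart from those 3, which were *Serpinb2*, *Keap1* and *Arntl*, edgeR called no difference between the responses. A gene named below in only 1 genotype is therefore not shown to respond in that genotype alone.

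Of the complex that holds AHR in the cytosol and the coactivators that work with it in the nucleus, 9 genes were tested. In WT mice 1 rose and 0 fell, beside 14.2% and 14.3% of all tested genes. In mice labelled *Lcn2*-/- 1 rose and 1 fell, beside 14.1% and 11.2%. *Ptges3*, which encodes the co-chaperone p23, rose in WT mice (log2 0.33, SE 0.11, adjusted p = 0.0448), and the call was lost without any 1 of the 6 mice (adjusted p up to 0.138). In mice labelled *Lcn2*-/-, *Ep300*, a histone acetyltransferase, rose by 0.41 on the log2 scale (adjusted p = 0.0125) and *Hsp90aa1*, a heat shock protein 90, fell by 0.51 (adjusted p = 0.0189). *Ep300* lost its call without IMQ mouse 3 labelled *Lcn2*-/- (adjusted p = 0.0527) and *Hsp90aa1* without control mouse 2, IMQ mouse 1 or IMQ mouse 3 labelled *Lcn2*-/- (adjusted p up to 0.072).

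The drug metabolism battery, the enzymes that AHR ligands induce beside the CYP1 family, held 7 measured genes, of which 6 were tested and 1 rose in each genotype. *Gsta1*, a glutathione transferase, was at 0.508, 1.07 and 0.425 CPM in WT control and at 6.54, 3.76 and 5.04 CPM in WT IMQ. All treated mice lay above the controls (log2 2.91, SE 0.56, adjusted p = 0.00284). *Ugt1a7c*, a glucuronosyltransferase that shares exons with its neighbours so that reads may be split among them, rose in mice labelled *Lcn2*-/- (log2 2.55, SE 0.37, adjusted p = 0.000813). The remaining gene, *Cyp1a2*, did not pass the filter on low counts. The median log2 difference of the 6 was 0.35 in WT mice and 0.12 in mice labelled *Lcn2*-/-.

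Among genes that have been reported as further AHR targets, several rose after IMQ. In WT mice 4 of 6 tested genes rose and 1 fell, and in mice labelled *Lcn2*-/- 3 rose. *Serpinb2*, a serine protease inhibitor of keratinocytes, was at 48.2, 83.8 and 61.1 CPM in WT control and at 846, 758 and 691 CPM in WT IMQ, against 97.5, 65.1 and 96.6 CPM in control labelled *Lcn2*-/- and 227, 269 and 274 CPM in IMQ labelled *Lcn2*-/-. WT IMQ stood highest, IMQ labelled *Lcn2*-/- between it and the controls, and the control groups overlapped. The log2 rise was 3.57 (SE 0.23, adjusted p = 1.95e-06) in WT mice and 1.57 (SE 0.21, adjusted p = 0.000487) in mice labelled *Lcn2*-/-. *Ptgs2*, the inducible cyclooxygenase, rose by 3.24 (adjusted p = 0.000289) and 1.94 (adjusted p = 0.0064) on the log2 scale, and *Ereg*, an EGF receptor ligand, by 2.76 (adjusted p = 5.52e-05) and 1.10 (adjusted p = 0.014), the last call being lost without IMQ mouse 2 labelled *Lcn2*-/- (adjusted p = 0.0591). *Socs2*, a suppressor of cytokine signalling, fell in WT mice (log2 -1.20, adjusted p = 0.0328), a call lost without control mouse 2 (log2 -0.58), IMQ mouse 1 (-1.12) or IMQ mouse 3 (-1.13), with adjusted p-values of 0.145, 0.116 and 0.104.

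*Il22*, a cytokine that drives keratinocyte growth, had no read in WT control and 0.969, 0.941 and 0.678 CPM in WT IMQ. Against a floor of 3 counts per library, that is at least 6.06-fold higher. In IMQ labelled *Lcn2*-/- it was read in 1 of 3 mice, at 0.488 CPM. *Il22* passed the filter on low counts only through WT IMQ, the group where it was high. Its call, counted among the 4 rises and among all pathway rises in WT mice above, is therefore no support of its own. The median log2 difference of the 6 targets in WT mice was 3.00, or 2.68 with *Il22* at that bound. In mice labelled *Lcn2*-/- it was 1.34, or 0.71 with *Il22* at its bound.

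Genes of the NRF2 battery, the antioxidant programme that also induces *Nqo1*, were measured because *Nqo1* answers to both factors. In WT mice 7 of 18 rose and 3 fell, beside 14.2% and 14.3% of all tested genes. In mice labelled *Lcn2*-/- 8 rose and 1 fell, beside 14.1% and 11.2%. The median log2 differences were 0.19 and 0.32. *Slc7a11*, the cystine transporter, was at 2.03, 0.817 and 1.06 CPM in WT control and at 172, 128 and 148 CPM in WT IMQ. Every treated mouse was far above every control mouse (log2 6.83, SE 0.61, adjusted p = 1.88e-05), and in mice labelled *Lcn2*-/- the rise was 4.17 on the log2 scale (SE 0.53, adjusted p = 0.000394). *Gsta4*, which detoxifies lipid peroxides, rose by 4.27 (adjusted p = 3.35e-05) and 3.26 (adjusted p = 0.000302). *Srxn1*, sulfiredoxin, rose by 1.20 (adjusted p = 0.000124) and 0.86 (adjusted p = 0.00167). *Nfe2l2*, the gene of NRF2 itself, rose by 0.91 (adjusted p = 0.000376) and 0.81 (adjusted p = 0.00121), and *Keap1*, its inhibitor, fell in WT mice by 0.57 (adjusted p = 0.00104). *Gclc*, a subunit of the enzyme that starts glutathione synthesis, fell in mice labelled *Lcn2*-/- (log2 -0.996, adjusted p = 0.006).

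**Figure D4:**
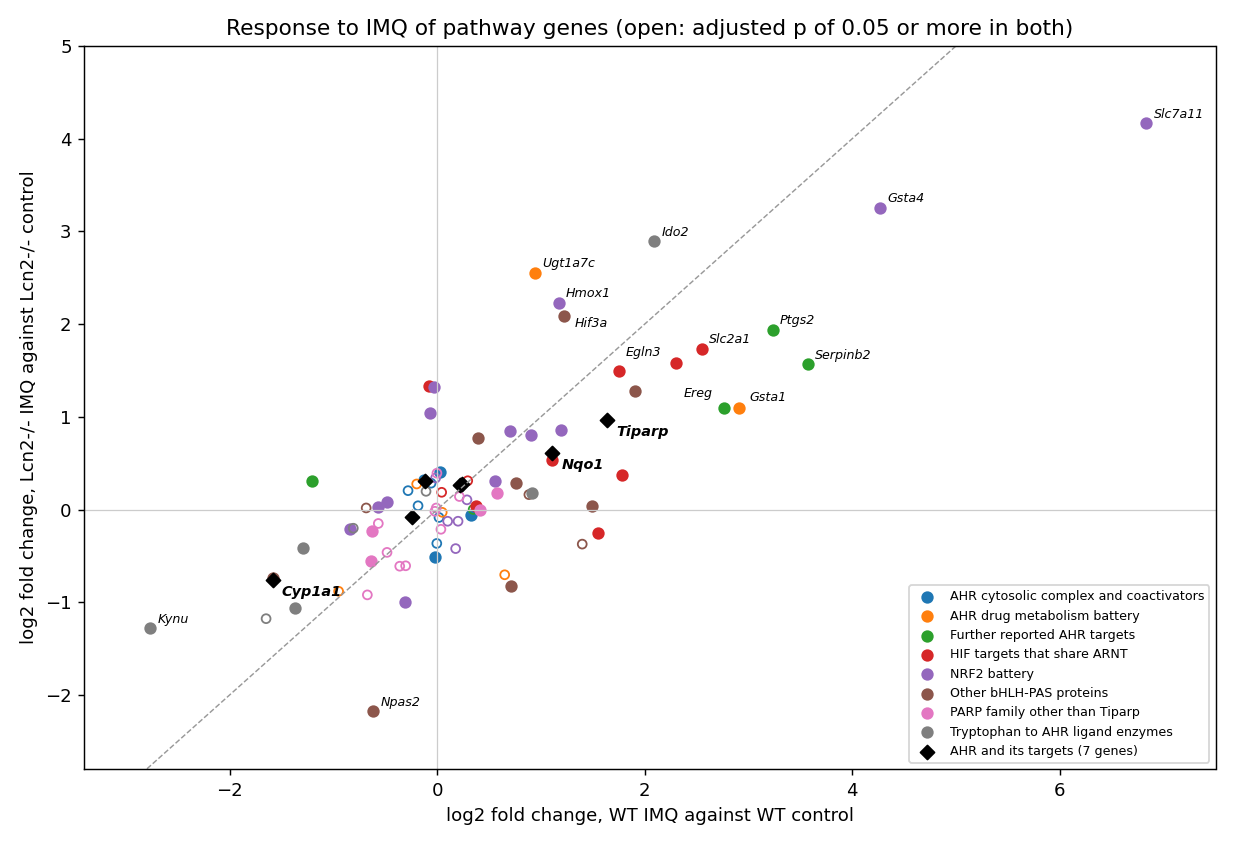
Log2 fold change after IMQ in WT mice (horizontal axis) and in mice labelled *Lcn2*-/- (vertical axis) for the tested pathway genes, coloured by list, with the 7 genes as black diamonds whatever their test and the line of equal change dashed. Open circles did not pass the test in either comparison, and *Il22* is left out because its WT control libraries were at 0. *Slc7a11* (6.83 and 4.17) lies farthest to the right.

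The enzymes that turn tryptophan into kynurenines and other AHR ligands had calls in both directions. Of 11 measured genes 8 were tested, and in WT mice 1 rose and 3 fell. The median log2 difference of the 8 was -1.05 in WT mice and -0.31 in mice labelled *Lcn2*-/-. *Kynu*, kynureninase, fell by 2.76 on the log2 scale (adjusted p = 0.0115), a call lost without WT IMQ mouse 1 (log2 -2.38, adjusted p = 0.0539). *Kyat3*, a kynurenine aminotransferase, fell by 1.37 (adjusted p = 0.000166) and *Kmo*, kynurenine monooxygenase, by 1.29 (adjusted p = 0.00964). In mice labelled *Lcn2*-/-, *Kyat3* fell by 1.06 (adjusted p = 0.00132) and *Ido2*, an indoleamine dioxygenase, rose (log2 2.90, adjusted p = 0.0169), the latter lost without control mouse 2 or 3 labelled *Lcn2*-/-, with adjusted p-values of up to 0.066.

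ARNT also pairs with other members of its protein family, the bHLH-PAS factors. *Hif1a*, the hypoxia-inducible subunit that competes with AHR for ARNT, was at 110, 112 and 101 CPM in WT control, 417, 394 and 400 CPM in WT IMQ, 96.5, 114 and 109 CPM in control labelled *Lcn2*-/- and 271, 222 and 282 CPM in IMQ labelled *Lcn2*-/-. The IMQ groups were apart from the controls and from each other. The log2 rise was 1.91 (SE 0.12, adjusted p = 1.77e-06) in WT mice and 1.28 (SE 0.12, adjusted p = 4.21e-05) in mice labelled *Lcn2*-/-. *Arnt2*, a second partner subunit, was at 5.64, 6.15 and 7.39 CPM in WT control and at 2.06, 3.36 and 1.07 CPM in WT IMQ. All treated WT mice were below the controls (log2 -1.58, SE 0.35, adjusted p = 0.00618). In all, 4 of 11 tested family members rose and 1 fell in WT mice, and 3 rose and 2 fell in mice labelled *Lcn2*-/-, where *Npas2* fell by 2.18 (adjusted p = 0.00109) and *Hif3a* rose (log2 2.09, adjusted p = 0.0132).

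**Figure D5:**
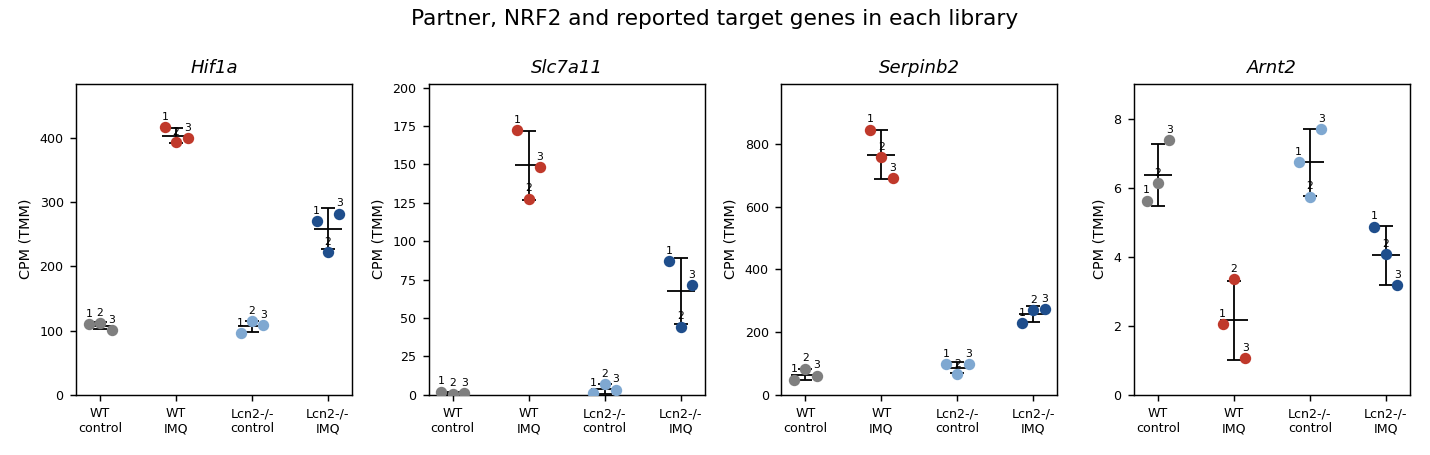
Levels of *Hif1a*, *Slc7a11*, *Serpinb2* and *Arnt2* in CPM (TMM scaled, axes from 0) in the 12 libraries, with the mean (bar) and SD (whiskers) of each group of 3. WT IMQ libraries lie highest for the first 3 genes, up to 417, 172 and 846 CPM, and lowest group by mean for *Arnt2*.

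Targets of the hypoxia-inducible factors, which use ARNT as AHR does, rose in 7 of 10 cases in WT mice and in 5 of 10 in mice labelled *Lcn2*-/-, and none fell. *Slc2a1*, the glucose transporter GLUT1, rose by 2.55 (adjusted p = 3.79e-06) and 1.73 (adjusted p = 0.000104) on the log2 scale. *Egln3*, an oxygen-sensing prolyl hydroxylase, rose by 2.30 (adjusted p = 6.55e-06) and 1.58 (adjusted p = 0.000162). *Vegfa*, the vascular growth factor, rose in WT mice (log2 1.78, adjusted p = 0.00123) and had a log2 difference of 0.37 in mice labelled *Lcn2*-/- (adjusted p = 0.371). Their median log2 difference was 1.33 in WT mice and 0.45 in mice labelled *Lcn2*-/-. Of the 14 other PARP family genes, relatives of *Tiparp*, 2 rose and 2 fell in WT mice, beside 14.2% and 14.3% of all tested genes. In mice labelled *Lcn2*-/- 0 rose and 1 fell, beside 14.1% and 11.2%. The median log2 differences were -0.16 and -0.18.

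Between IMQ labelled *Lcn2*-/- and WT IMQ, the 5 pathway genes that were lower were *Serpinb2* (log2 -1.57, SE 0.21, adjusted p = 0.0215), *Arntl2*, a clock factor (-1.47, SE 0.31, adjusted p = 0.0336), *Ereg* (-1.25, SE 0.27, adjusted p = 0.0352), *Hif1a* (-0.64, SE 0.12, adjusted p = 0.0234) and *Abcc1*, an export pump (-0.42, SE 0.11, adjusted p = 0.049). Each of these calls was kept without WT IMQ mouse 2 and lost without any 1 of the other 5 IMQ mice, with adjusted p-values of up to 0.202. The WT IMQ group enters both this comparison and the one with WT control, so the values share those mice.

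As a description over the 12 libraries and 15982 genes with a mean of at least 1 CPM, the genes most like each of the 7 in log2(CPM + 0.5) were listed by Pearson's r, without a test. The libraries share the division into 4 groups, which all these values contain. *Tiparp* was most like *Slc10a6* (r = 0.99) and *Serpinb2* (r = 0.97), and *Nqo1* like *Kcmf1* (r = 0.99) and *Lgals3* (r = 0.98). *Cyp1a1* was most like *Acoxl* (r = 0.98) and *Clstn3* (r = 0.98), *Cyp1b1* like *Ece1* (r = 0.95), *Arnt* like *Actr2* (r = 0.95), *Ahr* like *Cyp2j6* (r = 0.88) and *Ahrr* like *Klhl4* (r = 0.81). Among the 7, *Tiparp* and *Nqo1* varied together (r = 0.90), and *Arnt* ran with *Tiparp* (r = 0.84) and *Nqo1* (r = 0.72). *Cyp1a1* ran against *Tiparp* (r = -0.74), *Arnt* (r = -0.67) and *Nqo1* (r = -0.65). *Ahr* ran with *Ahrr* (r = 0.65) and *Cyp1a1* (r = 0.61).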

How the data were processed

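RNA from the back skin of 12 mice was sequenced with paired reads of 150 bp. The authors deposited 1 table of raw counts, whole numbers of reads per Ensembl gene and library, which were used as deposited. The processing notes name HISAT and mm8; other settings, strand included, are not given in the sources used here. Names and positions came from GENCODE M21 (GRCm38), which held 52073 of 56923 identifiers (91.5%), and identifiers without a match held 0.567% of the counts. All pairs of libraries within a group differed by more than sampling noise (chi-square per degree of freedom 11.8 to 99.1). The 95% intervals come from the fit and include the spread between mice, while the floors rest on counts of reads alone.

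Counts were scaled by TMM, filtered with filterByExpr (minimum count 10, minimum total 15) and tested with edgeR 4.0.16 (R 4.3.3, limma 3.58.1) by quasi-likelihood, with the 12 mice in 1 model of 4 group means, 5 contrasts and Benjamini-Hochberg adjustment over 18529 genes. A gene was called at an adjusted p under 0.05. DESeq2 1.42.0, which the authors used, other scalings and filters, fits on the compared mice, a replicate block and leaving out each mouse were alternatives. Counts were also simulated for WT IMQ against WT control, with the same spread for all 18529 genes (biological coefficient of variation 0.253) and 200 genes raised 4-fold. There edgeR recovered 100% and DESeq2 99.5% of the 200, with 5.21% and 15.3% of their calls false. In the data the spread differs between genes and changes go both ways with other sizes, so these rates do not carry over to the results. Promoters were searched with Python 3.11.15, and figures were drawn with matplotlib 3.10.9.

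The 7 genes and the lists were chosen with earlier results of these data known. Pathway genes could be named if called with groups that do not overlap, at most 4 per list by size of change or where their role is explained. Groups came from the sample labels.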

Additional observations from a re-analysis of the deposited data

Results flagged for a closer look

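No gene of the 7 stood out when the IMQ response was compared between genotypes, but 3 pathway genes did, by the adjusted p of that difference in edgeR's fit. *Serpinb2* rose less after IMQ in mice labelled *Lcn2*-/- than in WT mice, with a log2 difference of responses of -2.00 (SE 0.29, adjusted p = 0.0188), and stayed called in 7 of the 12 fits that left out 1 mouse, with adjusted p-values of up to 0.0732. *Keap1* fell in WT mice, from 53.2, 52.3 and 48.1 CPM to 33.4, 35.1 and 34.9 CPM, and was at 40.2, 42.1 and 44.8 CPM without and 42.8, 41.5 and 45.3 CPM with IMQ in mice labelled *Lcn2*-/-. Its difference of responses was 0.60 (SE 0.13, adjusted p = 0.0436), called in 2 of the 12 fits (without WT control mouse 3 or WT IMQ mouse 2), with adjusted p-values of up to 0.137. *Arntl*, a core factor of the circadian clock, rose in WT mice from 16.1, 10.4 and 15.5 CPM to 26.8, 18.1 and 23.9 CPM and fell in mice labelled *Lcn2*-/- from 27.8, 26.1 and 29.7 CPM to 18.4, 17.4 and 11.6 CPM. Its difference of responses was -1.53 (SE 0.31, adjusted p = 0.038), called in 3 of the 12 fits, with adjusted p-values of up to 0.124. For both *Keap1* and *Arntl* the control groups did not overlap, though edgeR did not call either gene between them. The difference of responses contains that gap, while the IMQ groups overlapped for *Arntl* and not for *Keap1*.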

How the results depend on the processing

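Under the alternatives, *Tiparp* and *Nqo1* stayed higher after IMQ in both genotypes, by direction, in each fit. With a fold change above 2 required as well, none of the 7 was called in mice labelled *Lcn2*-/- (2 without it), and 22 of the 37 pathway calls in WT mice and 18 of the 28 in mice labelled *Lcn2*-/- were left. *Cyp1a1* lost its call in WT mice without the filter on low counts (log2 -1.62, adjusted p = 0.15) and in fits on the compared mice by edgeR (-1.60, 0.109) and DESeq2 (-1.58, 0.147). Between the IMQ groups, fits on those mice alone called 2 of the 7 by edgeR and 2 by DESeq2 (0 in the fit of all mice). The 5 pathway calls there became 3 without the filter, 3 with the fold limit, 16 by DESeq2 on all 12 mice, and 14 (edgeR) and 17 (DESeq2) on the compared mice. Between the control groups DESeq2 called 2 pathway genes on all mice and 1 on the compared mice (0 by edgeR), and for the difference of responses DESeq2 called 16 (3 by edgeR). The causes were not tested. With at least 10 counts required in every library, a few named genes of low level, such as *Il22*, dropped out and have no value. Values near 0 changed sign. *Ahr* between the IMQ groups was 0.00054 with RLE size factors, 0.0097 without the filter, 0.0026 by DESeq2 on all mice, and 0.0089 (edgeR) and 0.0059 (DESeq2) on the compared mice. *Nqo1* between the control groups was 0.0043 with RLE, 0.0073 by DESeq2 on all mice and 0.0026 by edgeR on the compared mice.

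Leaving out 1 mouse gave between 1 and 2 calls among the 7 in mice labelled *Lcn2*-/- and between 0 and 2 between the IMQ groups, with 0 to 15 pathway calls. For the difference of responses it gave 0 to 1 among the 7 and 0 to 10 among pathway genes. Signs changed within these log2 ranges. In WT mice after IMQ, *Ahrr* lay between -0.23 and 0.0070 and *Cyp1b1* between -0.27 and 0.44, and in mice labelled *Lcn2*-/- *Ahr* lay between -0.29 and 0.092. Between the IMQ groups, *Ahr* lay between -0.15 and 0.18 and *Cyp1a1* between -0.075 and 1.51. Between the control groups, *Tiparp* lay between -0.048 and 0.48, *Nqo1* between -0.20 and 0.14, *Ahr* between -0.34 and 0.042 and *Ahrr* between -0.39 and 0.12. For the difference of responses, *Cyp1b1* lay between -0.17 and 0.54, *Arnt* between -0.047 and 0.11 and *Ahr* between -0.046 and 0.34.

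Same-numbered mice are different animals, and their deviations from the group means did not go together (mean r -0.0615 over 18 pairs, 0.0327 over 36 pairs of other numbers). With the replicate block, the number of the 7 called was 3 in WT mice, 2 in mice labelled *Lcn2*-/- and 0 in the other comparisons, as without it, and pathway calls were 33, 27, 2 between the IMQ groups and 0 for the difference of responses. Among named genes, *Ptges3* and *Socs2* in WT mice, *Ereg*, *Hif1a* and *Abcc1* between the IMQ groups, and *Serpinb2*, *Keap1* and *Arntl* for the difference of responses lost their call under the block, with adjusted p-values between 0.0541 and 0.0959.

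With 3 mice a group, log2 differences of the size of those of *Ahr*, *Ahrr* and *Cyp1b1* could not be told from the spread between mice. *Ahrr* had 64 to 233 counts per library. Reads of overlapping or near-identical genes cannot be parted at this level.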
